A study of Mus musculus with 6 samples.

Results

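The nuclear-encoded subunits of mitochondrial respiratory chain complexes I to IV were compared in mammary tumor spheres of 2 FRS2beta genotypes, hetero (heterozygous) and ko (knockout). Spheres are floating clusters of cells in serum-free culture, and FRS2beta, the product of Frs3, is a docking protein for receptor tyrosine kinases. Members were chosen by a rule on gene names, with earlier results of these data known. It takes every mouse symbol that begins with Uqcr or with Cox and a digit from 4 to 8. It also takes the symbols Sdha to Sdhd and the numbered Ndufa, Ndufb, Ndufc, Ndufs and Ndufv symbols. The reference held 72 such genes, and 66 of the 20648 genes named on the array were among them, covered by 85 probes. The other 6 (Ndufb1, Cox6c2, Uqcrh-ps1, Uqcrh-ps2, Cox5b-ps and Cox7c-ps1) were not analysed here. Of the 66, 64 were well above background on all 6 arrays and were tested, while Cox7b2 and Cox8c, testis isoforms of complex IV, stayed below that limit on every array. The name rule takes in isoforms but leaves out cytochrome c1 and the subunits encoded by mitochondrial DNA, so "complex" below means its members under this rule.

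Total RNA of 6 sphere samples, 3 per genotype, carried the dye Cy3 on single-colour Agilent arrays of 1 slide. The medium of all samples was DMEM/F12 plus B27, with EGF and bFGF each at 20 ng/mL and 2 mg/mL of heparin. Wild-type spheres were not part of the comparison, and the control animals carry 1 FRS2beta allele less than wild type. The sources used here do not state what induced the tumors, the animals' age and strain, or whether replicates came from separate animals. The p-values thus reflect only how these samples vary, which may be technical.

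The respiratory chain passes electrons from NADH and succinate to oxygen and pumps protons across the inner mitochondrial membrane. Complex I oxidises NADH and complex II, an enzyme of the tricarboxylic acid cycle, oxidises succinate. Both hand their electrons to ubiquinone, complex III passes them to cytochrome c, and complex IV reduces oxygen. Most subunits are needed in nearly every cell, and several subunits of complex IV exist as a general form and as a form of particular tissues such as heart, skeletal muscle, lung or testis.

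The arrays of a genotype correlated at 0.995 to 0.998 over all genes and those of different genotypes at 0.966 to 0.971. Frs3 was well above background on 1 of 3 hetero arrays and on 0 of 3 ko arrays, so its probe is a weak check of the labels, and its place relative to the deletion is unknown here. Cell type markers differed strongly between the genotypes. The 7 luminal epithelial markers were all higher in ko spheres (median log2 fold change 3.44), and their summed linear level, relative to each array's 75th percentile, ran from 10.7 to 11.2 in hetero and from 114 to 116 in ko. The 7 macrophage markers tested were all lower (median -1.81, sum 12.5 to 12.8 against 5.2 to 5.34), and all of both lists were well above background on all 6 arrays. Basal epithelial markers were higher in 4 of 5, fibroblast markers lower in 6 of 7, and proliferation markers higher in 4 of 7. By the same test, described below, 27.8% of all genes were higher and 32.6% lower. The part of these cell types in the results below was not tested. In bulk RNA, fewer cells of a type and less RNA per cell cannot be told apart.

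Respiratory chain genes differed little between the genotypes, and the largest differences were in Cox6b2 (lower in ko), Ndufv3 and Cox8b (both higher), each by its brightest probe. Values are log2 intensities relative to the 75th percentile of their array, and differences are ko minus hetero. A gene was called at a Benjamini-Hochberg adjusted p under 0.05 in limma's test over the 15838 genes tested, and the genotypes are called apart where no array of either overlaps the range of the other. Of the 64 members, 31 (48.4%) were called, against 60.4% of all genes tested. Higher calls were 17, against 27.8% of all genes, and lower calls 14, against 32.6% of all genes. The genotypes were apart for 42 members (65.6%), against 68.9% of all genes. With the 75th percentile scaling, the members' shares of calls and of genes apart thus lay near or below those of all genes. Other scalings are described below. The share called was above that of all genes with no scaling (84.4% against 65.8%) and spike-in scaling (98.4% against 80.4%). It was also above with quantile normalization (75% against 60.1%) and cyclic loess (73.4% against 60.3%). It was below with median scaling (20.3% against 44.8%), the percentile over detected probes (48.4% against 60.3%) and normexp (53.1% against 63.6%).

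The median absolute log2 difference was 0.08 over the members and 0.22 over all genes. A difference above 0.25 in size was found in 8 members (12.5%) and in 44.8% of all genes, and a difference of at least 1 in 0 members and in 10.6% of all genes. The members' median was 0.03, with a range from -0.80 for Cox6b2 to 0.61 for Ndufv3, beside a median of -0.03 over all genes. The members were bright, with 59 of 64 above the 75th percentile of gene levels. Of all genes above that level, 67.1% were called, and their median was -0.05. The median absolute difference of these bright genes was 0.16, with 31% above 0.25 in size and 3.21% of at least 1. The members' 0.08, 12.5% and 0 were lower than these values too, but by less than beside all genes. The median standard error was 0.028 over the members and 0.041 over all genes.

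**Figure D1:**
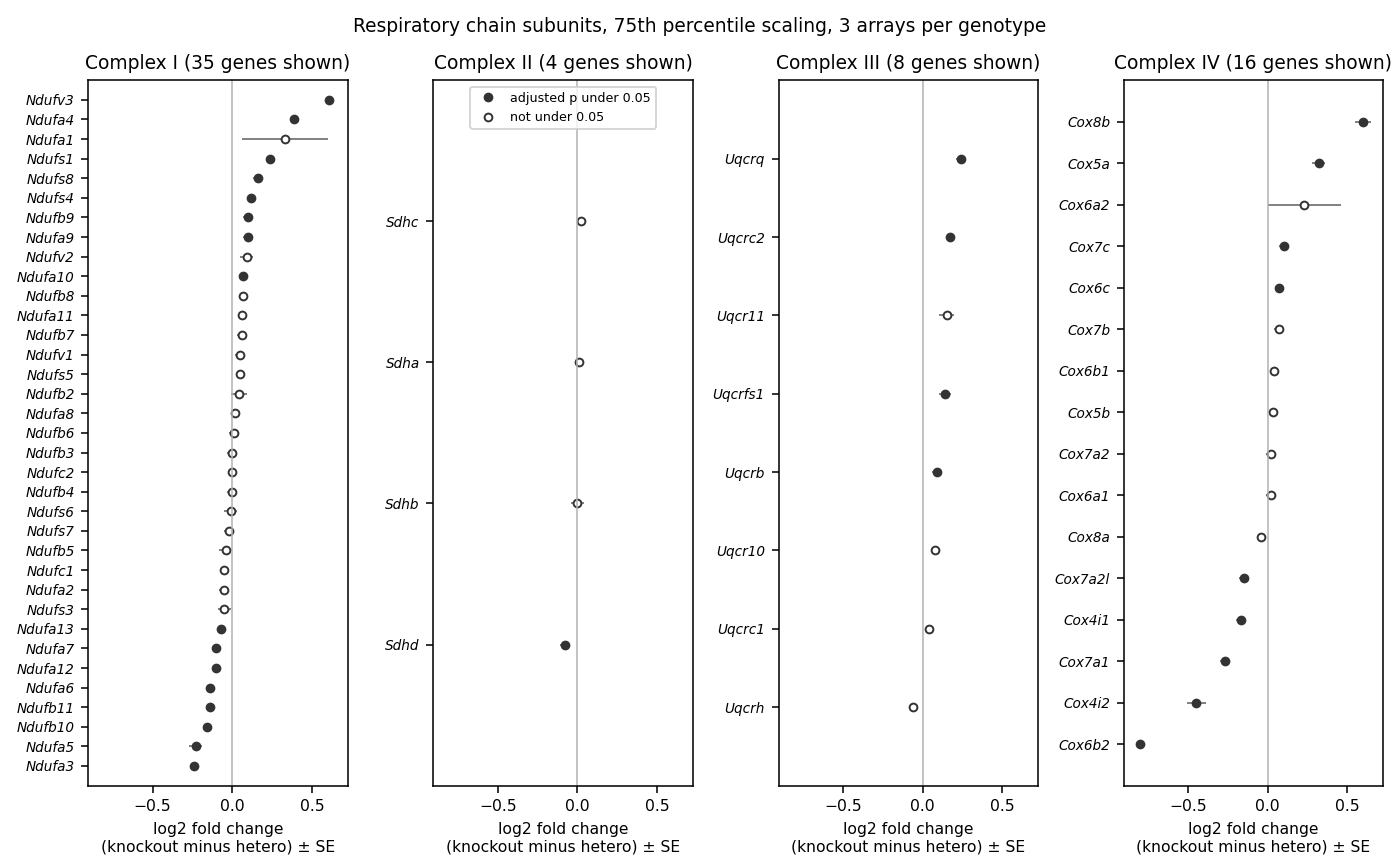
Log2 difference (ko minus hetero, 3 arrays each, scaled to the 75th percentile) of 63 of the 64 tested members by complex, as a point with its standard error as a bar. Filled points were called at an adjusted p under 0.05, open points were not. Most of the points lie close to 0, and the members farthest from it are Cox6b2 at -0.80, Ndufv3 at 0.61 and Cox8b at 0.60.

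The complexes differed little from one another in their medians. Complex I had 36 tested members, 9 called higher and 8 lower, with a median of 0.02. Complex II had 4, with 0 higher and 1 lower and a median of 0. Complex III had 8, with 4 higher and 0 lower and a median of 0.12. Complex IV had 16, with 4 higher and 5 lower and a median of 0.03. The share called was 47.2% in complex I, 25% in II, 50% in III and 56.2% in IV, against 60.4% of all genes. Of all genes, 27.8% were called higher and 32.6% lower. The mean level of complex I ran from 5.12 to 5.13 on the hetero arrays and from 5.16 to 5.17 on the ko arrays, and that of complex III from 5.33 to 5.34 and from 5.43 to 5.46, so neither overlapped between genotypes. The mean of complex II (4.87 to 4.91 in hetero, 4.87 to 4.88 in ko) and that of complex IV (4.53 to 4.57, then 4.52 to 4.53) overlapped or touched. The touching of complex IV rests on Cox6a2, which was low on hetero replicate 1 alone: without it, chosen after seeing the data, the mean of the other 15 members was 4.72 to 4.76 in hetero and 4.69 to 4.71 in ko, and the arrays were apart. Complex I without Ndufa1, low on the same array, stayed apart, at 5.12 to 5.13 and 5.15 to 5.16. A mean that stays apart by such amounts rests on the scaling, which is taken up after the single complexes.

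For 9 members the call and its direction held under all 8 scalings tried, a criterion that favours rises, as described below. Among them, Ndufv3, Cox8b, Ndufa4, Cox5a, Ndufs1, Uqcrq and Ndufs8 were higher in ko spheres, and Cox6b2 was lower. The reference table of promoters held 52 of the 64 tested members and 6 of these 9. The 250 bases before the annotated start are given for Ndufv3 of complex I and for Cox5a, Cox8b and Cox6b2 of complex IV, because these are among the widest differences and their promoters differ in kind. Sequences are from RefSeq on GRCm38.p6, written 5′ to 3′ on the gene's strand, and capitals mark CCAAT and GGGCGG on either strand (as ATTGG and CCGCCC on the other).
Ndufv3, chr17:31519865-31520114, plus strand: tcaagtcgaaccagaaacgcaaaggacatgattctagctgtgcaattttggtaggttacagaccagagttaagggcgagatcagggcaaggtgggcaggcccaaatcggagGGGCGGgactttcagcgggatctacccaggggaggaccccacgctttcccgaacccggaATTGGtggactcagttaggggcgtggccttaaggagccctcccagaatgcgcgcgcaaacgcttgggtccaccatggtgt
Cox5a, chr9:57520982-57521231, plus strand: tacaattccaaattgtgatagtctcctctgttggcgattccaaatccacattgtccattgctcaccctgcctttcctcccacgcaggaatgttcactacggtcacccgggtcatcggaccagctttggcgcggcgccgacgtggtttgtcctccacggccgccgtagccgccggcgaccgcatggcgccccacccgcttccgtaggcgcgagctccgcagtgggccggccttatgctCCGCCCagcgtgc
Cox8b, chr7:140900447-140900696, minus strand: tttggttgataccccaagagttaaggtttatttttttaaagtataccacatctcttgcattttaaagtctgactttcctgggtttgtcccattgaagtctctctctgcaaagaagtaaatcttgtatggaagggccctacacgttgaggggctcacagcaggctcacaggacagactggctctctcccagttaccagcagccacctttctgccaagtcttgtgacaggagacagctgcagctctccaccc
Cox6b2, chr7:4753095-4753344, minus strand: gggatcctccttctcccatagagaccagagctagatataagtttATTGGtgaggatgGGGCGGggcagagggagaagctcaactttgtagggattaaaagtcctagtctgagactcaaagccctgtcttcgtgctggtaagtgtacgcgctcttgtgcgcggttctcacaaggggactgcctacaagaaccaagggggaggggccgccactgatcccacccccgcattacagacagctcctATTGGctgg
The Cox8b window holds neither motif, at 47.2% G and C, while the Cox5a window holds 1 GGGCGG at 63.2%. The Ndufv3 window holds 1 of each motif, at 57.6%, and the Cox6b2 window 2 CCAAT and 1 GGGCGG, at 54.8%. Members were counted as genes with a match in any of their promoters, and the whole table by single promoters, so the shares below differ in unit. CCAAT was in 38.5% of the 52 members against 33.8% of all 32851 promoters of the table, and GGGCGG in 36.5% against 32.7%. TGCGCA was in 21.2% against 6.43%, and a separate palindrome that nuclear respiratory factor 1 is known to bind in 3.85% against 0.782%. CCGGAAG, a core of ETS-family sites, was in 15.4% against 6.91%, and TATAAA in 7.69% against 12.4%. Each motif was searched on both strands, and none of them holds another. Of members with a window, 1 of 10 called higher and 3 of 12 called lower held TGCGCA, and 0 of 10 and 1 of 12 held CCGGAAG. A match is a run of letters and no evidence of binding.

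**Figure D2:**
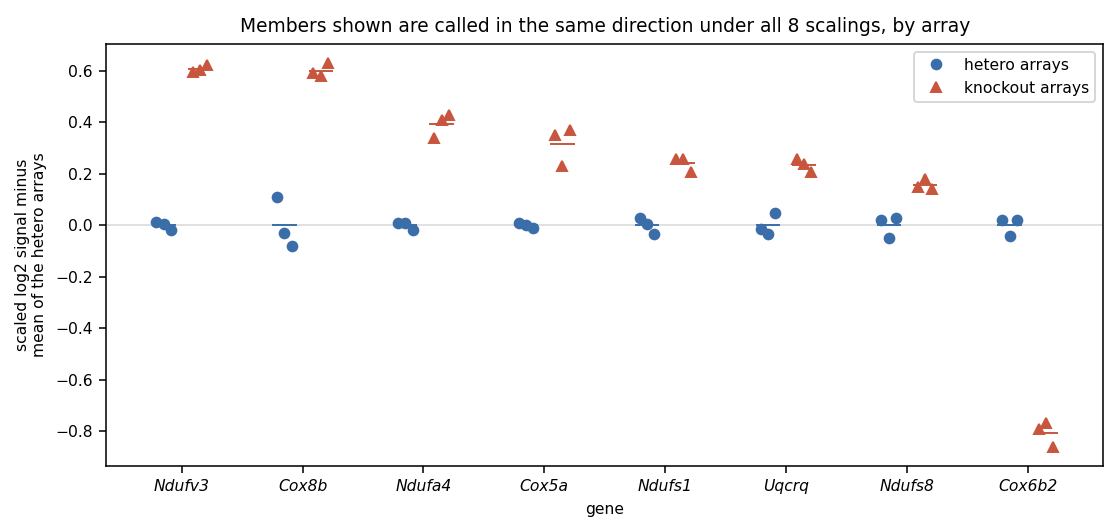
Signal of 8 of the 9 members whose call held under all 8 scalings (log2, scaled to the 75th percentile, minus the mean of the 3 hetero arrays), with 1 point per array and a line at each genotype's mean. The ko arrays lie above the hetero arrays in 7 of these genes, by 0.61 in Ndufv3 down to 0.16 in Ndufs8, and below them by 0.80 in Cox6b2.

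In complex I, the catalytic core carries the flavin and iron-sulfur clusters, and the accessory subunits surround it. Among the nuclear core subunits, Ndufs1 and Ndufs8 were higher in ko. Ndufs1, the large iron-sulfur subunit of the NADH-oxidising arm, had 4.36, 4.34 and 4.30 on the hetero arrays and 4.59, 4.59 and 4.54 on the ko arrays. The 2 sets did not overlap, and the difference was 0.24 ± 0.03 (SE, n = 3 arrays per genotype, limma adjusted p = 0.000966). Ndufs8, an iron-sulfur subunit, had 3.21, 3.14 and 3.22, then 3.34, 3.37 and 3.33, a difference of 0.16 ± 0.03 (limma adjusted p = 0.00623). All ko arrays were above all hetero arrays for both genes. Core subunits that did not pass differed by 0.09 for the iron-sulfur subunit Ndufv2, 0.05 for the flavin-binding Ndufv1, -0.02 for Ndufs7 and -0.05 for Ndufs3, with limma adjusted p from 0.105 to 0.556. Ndufv2 passed without ko replicate 1 (0.13 ± 0.03, limma adjusted p = 0.0128).

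Of the 29 accessory subunits, 6 were higher and 8 lower, beside 27.8% and 32.6% of all genes, with a median of 0. Ndufv3, a small subunit at the NADH-oxidising tip, had the largest rise of all members. Its brighter probe read 5.63, 5.62 and 5.60 in hetero and 6.21, 6.22 and 6.24 in ko, a difference of 0.61 ± 0.02 (1.52-fold, limma adjusted p = 8.99e-06). A second probe of the same transcript record read 1.79, 1.87 and 1.85 in hetero and 1.43, 1.49 and 1.45 in ko, a difference of -0.38 ± 0.04 (limma adjusted p over all probes = 0.000834). The 2 probes were therefore called in opposite directions, and the rise of Ndufv3 holds for 1 of them. With the mean of both probes its difference was 0.11 ± 0.02 (limma adjusted p = 0.00831). Of the 15 members with several tested probes this was the only such case, and for 12 of them the probes' differences lay within 0.1 of each other.

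Ndufa4, which carries a complex I name but is known as a subunit of complex IV, read 4.32, 4.32 and 4.29 in hetero and 4.65, 4.72 and 4.74 in ko. The difference was 0.39 ± 0.03 (1.31-fold, limma adjusted p = 0.000165), and no arrays overlapped. Counted with complex IV it leaves complex I with 8 higher and 8 lower of 35, and gives complex IV 5 higher and 5 lower of 17. Smaller rises were called for Ndufs4, needed for assembly of the NADH-oxidising arm (0.12 ± 0.02), for Ndufa9 (0.10 ± 0.03) and for Ndufb9 (0.10 ± 0.03), with limma adjusted p of 0.00957, 0.0365 and 0.0366. The call of Ndufa9 held only without hetero replicate 2, and that of Ndufb9 only without hetero replicate 3 or ko replicate 2, when single arrays were left out.

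Among accessory subunits that fell, Ndufa3, a small membrane-arm subunit, read 6.5 on all 3 hetero arrays and 6.27, 6.26 and 6.26 on the ko arrays, a difference of -0.24 ± 0.02 (limma adjusted p = 0.000208). Ndufa5, a subunit of the peripheral arm, read 5.61, 5.52 and 5.63, then 5.36, 5.29 and 5.41, a difference of -0.23 ± 0.04 (limma adjusted p = 0.00683). Ndufb10 fell by 0.16, Ndufa6 by 0.14 and Ndufb11 by 0.14, each ± 0.02 and with adjusted p between 0.0015 and 0.00208. In these 5 genes every ko array was below every hetero array under the 75th percentile scaling. With scaling to spike-in controls all 5 turned to higher in ko. Ndufb10, Ndufa6 and Ndufb11 also turned, without a call, with no scaling, and Ndufb11 with quantile normalization.

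Ndufa1, named here after its values were seen, read 4.61 on hetero replicate 1 against 5.56 and 5.54 on the other hetero arrays and 5.54, 5.55 and 5.59 on the ko arrays. Its difference of 0.33 ± 0.27 (limma adjusted p = 0.344) became 0.01 ± 0.03 without hetero replicate 1. The muscle isoform Cox6a2 of complex IV was low on the same array alone, with 1.08 against 1.88 and 1.88 in hetero and 1.83, 1.82 and 1.87 in ko. Their spots are neighbours, at row 21, column 12 and at row 20, column 14, and carry no outlier flag. Of the 88 spots within 5 rows and columns that were well above background on all 6 arrays, 36 (40.9%) read over 0.5 below the mean of the other hetero arrays on hetero replicate 1, against 1.99% of all such spots on that array, and 5.68% and 3.41% of the same 88 on hetero replicates 2 and 3. Without hetero replicate 1, 11 members were called higher, and 55.3% of all genes were called. Leaving out any 1 array gave 11 to 13 members higher. Neither Ndufa1 nor Cox6a2 was called with all arrays.

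**Figure D3:**
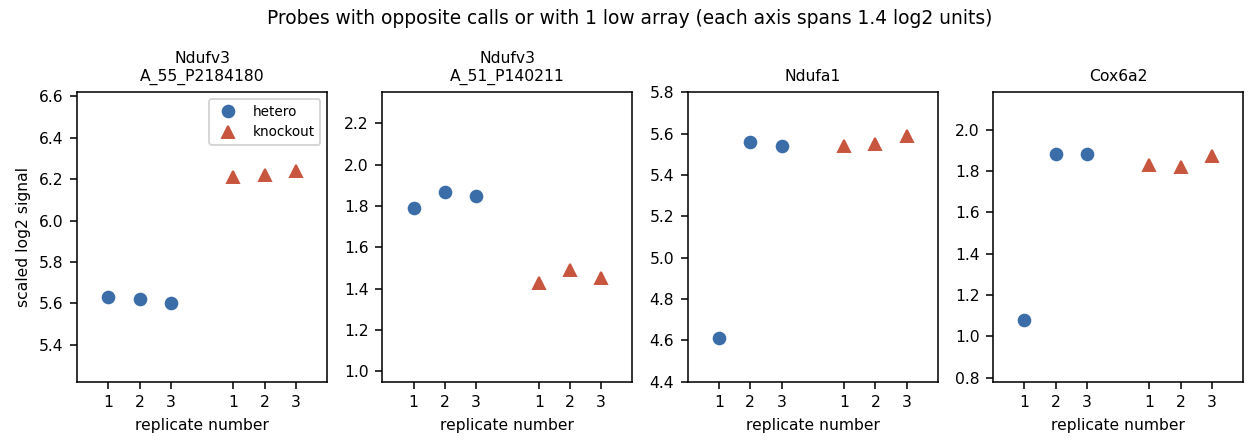
Log2 signal, scaled to the 75th percentile, on each array for both probes of Ndufv3 and for the probes of Ndufa1 and Cox6a2, with hetero arrays as circles and ko arrays as triangles, each axis spanning 1.4 log2 units. The Ndufv3 probes split by genotype in opposite directions (0.61 and -0.38), while Ndufa1 and Cox6a2 are low on hetero replicate 1 alone, at 4.61 and 1.08.

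Complex II showed the smallest differences. Sdha, the flavoprotein that oxidises succinate, read 4.32, 4.34 and 4.34 in hetero and 4.32, 4.34 and 4.36 in ko, a difference of 0.01 ± 0.02. Sdhb, the iron-sulfur subunit, read 5.99, 5.92 and 5.88, then 5.95, 5.92 and 5.92, a difference of 0 ± 0.04. The membrane anchor Sdhc differed by 0.02 ± 0.02. The arrays of the genotypes overlapped for these 3 genes, with limma adjusted p from 0.507 to 0.967. The other anchor, Sdhd, read 5.11, 5.05 and 5.09 in hetero and 5.01, 5.01 and 5 in ko, a difference of -0.08 ± 0.03 (limma adjusted p = 0.0389). That call held without hetero replicate 2 and was lost without any other array (limma adjusted p from 0.0903 to 0.101), and the difference was 0.34 with spike-in scaling.

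In complex III, 7 of 8 members lay above 0 and 4 were called higher. Uqcrq, a small subunit next to cytochrome b, read 6.60, 6.58 and 6.66 in hetero and 6.87, 6.85 and 6.82 in ko, a difference of 0.24 ± 0.03 (1.18-fold, limma adjusted p = 0.00132). Its second probe gave 0.30 ± 0.05 in the same direction. Uqcrc2, a core protein that faces the matrix, read 4.57, 4.59 and 4.55, then 4.73, 4.76 and 4.74, a difference of 0.17 ± 0.02 (limma adjusted p = 0.00144). Uqcrfs1, the Rieske iron-sulfur protein that carries electrons to cytochrome c1, read 4.24, 4.27 and 4.28, then 4.38, 4.36 and 4.47, a difference of 0.14 ± 0.04 (limma adjusted p = 0.0181, and 0.057 without hetero replicate 1). Every ko array was above every hetero array for these 3 genes. The small subunit Uqcrb was called at 0.09 ± 0.03 (limma adjusted p = 0.035), a call that held without hetero replicate 1 and was lost without any other array (limma adjusted p from 0.0578 to 0.102).

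The other members of complex III did not pass. Uqcr11 differed by 0.15 ± 0.05 (adjusted p = 0.0625, and 0.00561 without ko replicate 3), Uqcr10 by 0.08 ± 0.03 (adjusted p = 0.106) and the core protein Uqcrc1 by 0.04 ± 0.02 (adjusted p = 0.175), all by limma. The hinge protein Uqcrh differed by -0.06 ± 0.02 (limma adjusted p = 0.0637), and its difference was above 0 and called under 4 scalings. Cyc1, the cytochrome c1 gene that the name rule leaves out, was higher in ko by 0.23 ± 0.03 (limma adjusted p = 0.00272).

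In complex IV the tissue isoforms spanned a wider range of differences than the general ones. Of the 5 tested tissue isoforms, 1 was higher and 3 were lower (range -0.80 to 0.60), and of the 6 general isoforms 0 were higher and 1 lower (range -0.17 to 0.07). Of all genes, 27.8% were called higher and 32.6% lower. Cox6b2, the testis form of subunit VIb, read 1.15, 1.09 and 1.15 in hetero and 0.34, 0.36 and 0.27 in ko, a difference of -0.80 ± 0.03 (1.75-fold lower in ko, limma adjusted p = 1.91e-05). Its general counterpart Cox6b1 differed by 0.04 ± 0.02 (limma adjusted p = 0.149). Cox4i2, the lung form of subunit IV, known for its rise in low oxygen, read 0.24, 0.09 and 0.32, then -0.19, -0.25 and -0.27, a difference of -0.45 ± 0.06 (limma adjusted p = 0.00221). The general form Cox4i1 read 7.55, 7.56 and 7.54, then 7.40, 7.39 and 7.33, a difference of -0.17 ± 0.03 (limma adjusted p = 0.00329). Under the 75th percentile scaling both forms of subunit IV were lower on every ko array, but Cox4i2 differed by only -0.03 (limma adjusted p = 0.661) with spike-in scaling, and Cox4i1 by 0.24 in the opposite direction.

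The muscle isoforms did not move together. Cox8b, the heart and skeletal muscle form of subunit VIII, also found in brown fat, read -0.41, -0.55 and -0.60 in hetero and 0.07, 0.06 and 0.11 in ko, a difference of 0.60 ± 0.05 (1.51-fold, limma adjusted p = 0.000323). Cox7a1, the muscle form of subunit VIIa, read 1.56, 1.56 and 1.55, then 1.33, 1.27 and 1.25, a difference of -0.27 ± 0.03 (limma adjusted p = 0.000664) that became 0.15 with spike-in scaling. Cox6a2 differed by 0.23 ± 0.23 (limma adjusted p = 0.435), and by -0.04 ± 0.03 without hetero replicate 1. The general forms Cox8a, Cox7a2 and Cox6a1 differed by -0.04, 0.02 and 0.02, with adjusted p from 0.281 to 0.597.

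Striated muscle markers moved beside Cox8b. They were higher in 9 of 10 genes and lower in 0, with a median of 0.47, and their summed level was 39.8 on each hetero array and 51.9 to 52.6 on the ko arrays. Of all genes, 27.8% were called higher and 32.6% lower. Myh4 (0.92), Actn3 (0.84) and Acta1 (0.61) were the ones with the smallest p, while the muscle creatine kinase gene Ckm differed by -0.29 (limma adjusted p = 0.267), and Myh2 was not well above background on any hetero array. Of 7 adipocyte markers 5 were tested, with 1 higher (Cidea, 1.96) and 2 lower, and the brown fat gene Ucp1 was not well above background on at least 3 arrays. Beside the fall of Cox4i2, pericyte markers were higher in 3 of 5 and lower in 0, led by Cspg4 (1.74) and Notch3 (1.69). Their summed level was 45.3 to 47.1 in hetero and 62.1 to 64.2 in ko. The pericyte markers did not move together: Abcc9 (-0.12) and Rgs5 (-0.02) were not called, and Kcnj8 was not well above background on at least 3 arrays. The part of muscle, fat or pericyte RNA in these values was not tested.

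Of the other complex IV subunits, Cox5a, the general subunit Va, rose most, with 6.48, 6.47 and 6.46 in hetero and 6.82, 6.70 and 6.84 in ko, a difference of 0.32 ± 0.04 (1.25-fold, limma adjusted p = 0.00147). Its partner Cox5b differed by 0.03 ± 0.03 (limma adjusted p = 0.48). Cox7c and Cox6c were called at 0.10 and 0.07. Cox7a2l, a factor that joins complexes III and IV into supercomplexes, read 6.47, 6.44 and 6.39, then 6.25, 6.31 and 6.28, a difference of -0.15 ± 0.03 (limma adjusted p = 0.00909) that became 0.27 with spike-in scaling. Cox7b did not pass, with a difference of 0.07 ± 0.03.

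How the arrays were scaled decided the direction of many small differences: 41 of the 64 members lay above 0 with 75th percentile scaling, 59 with no scaling and 62 with spike-in scaling. The 75th percentile of the signal was higher on the ko arrays, at 465 to 487 against 404 to 416, while the 7 spike-in control probes were dimmer on them, at a mean log2 of 10.38 to 10.47 against 10.60 to 10.65. Subtracting the 75th percentile therefore lowered every difference by 0.22 relative to no scaling and by 0.42 relative to spike-in scaling, on the log2 scale. Of the 64 members, 36 lay within 0.1 of 0, 50 within 0.22 and 60 within 0.42. A shift of that kind moves all genes alike, so the members' median stayed 0.06 above that of all genes under each scaling by a constant per array.

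The counts of called members followed the shift. Without scaling 52 of the 64 members were called higher and 2 lower. Of all 15838 genes, 8260 were then called higher and 2164 lower (65.8% called), and the all-gene median was 0.18. With spike-in scaling 62 members were higher and 1 lower. Of all genes, 11471 were then higher and 1267 lower (80.4% called), and the all-gene median was 0.38. With the percentile taken over probes above background on all arrays the members' counts were 19 and 12. Those of all genes were 4642 and 4914 (60.3% called). With median scaling the members' counts were 8 and 5, and those of all genes 3483 and 3605 (44.8% called). The median standard error over all genes rose from 0.041 to 0.071. With no filter on dim probes the members' counts were 11 and 11 of 66, and those of all genes 4119 and 4810 of 20648 (43.2% called).

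Scalings that depend on intensity moved these bright genes more than the rest. With quantile normalization 44 of the 64 members were called higher and 4 lower. Of all 15838 genes, 5062 were then higher and 4464 lower (60.1% called), and the all-gene median was 0. With cyclic loess the members' counts were 43 and 4, and those of all genes 5493 and 4054 (60.3% called), with an all-gene median of 0.03. With normexp background correction the members' counts were 24 and 10, and those of all genes 4202 and 5866 (63.6% called), with an all-gene median of -0.05. The members' median then lay 0.13, 0.09 and 0.12 above that of all genes. Complex III lay 0.15 above all genes under every scaling by a constant, and 0.22, 0.18 and 0.20 above under these 3. Its median was the highest of the 4 complexes under all 8 scalings, at 0.12 to 0.53. A constant per array cannot change the order of the complexes, so only these 3 scalings could have changed it.

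**Figure D4:**
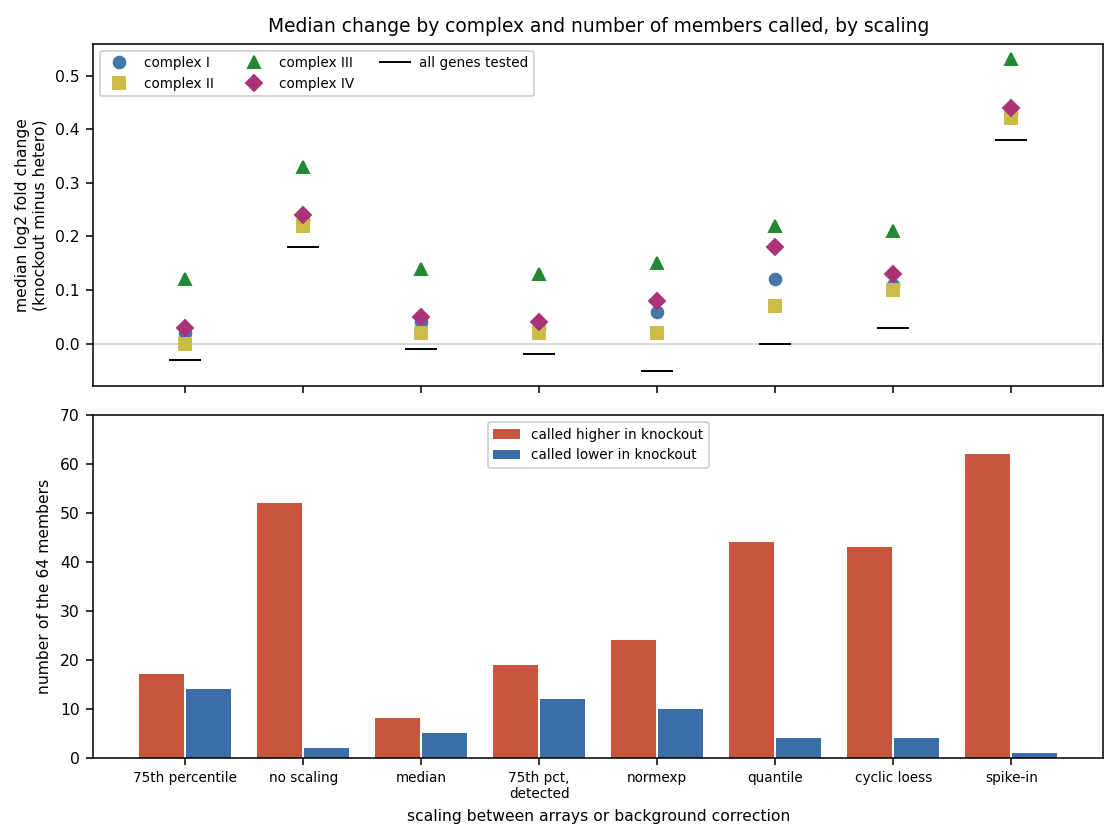
Median log2 difference (ko minus hetero) of complexes I to IV and of all genes under 8 scalings, above the number of the 64 members called higher or lower under each. The medians of the complexes rise together from near 0 to between 0.42 and 0.53 with spike-in scaling, where 62 members are called higher and 1 lower.

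The members separate by how they bore these 8 scalings. For 8 the call was higher in all 8, with the lowest difference 0.61 for Ndufv3, 0.51 for Cox8b, 0.39 for Ndufa4, 0.32 for Cox5a, 0.24 for Ndufs1 and Uqcrq and 0.16 for Ndufs8, to name those described above. Only Cox6b2 was lower in all 8, between -0.80 and -0.39. For 12 members a call was made in each direction under at least 1 scaling: Ndufa3, Ndufa5, Ndufa6, Ndufa7, Ndufa12, Ndufa13, Ndufb10 and Ndufb11 of complex I, Sdhd of complex II, and Cox4i1, Cox7a1 and Cox7a2l of complex IV. The other 43 were called in 1 direction under some scalings. No member of complex III was called in opposite directions.

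Genes that act around the chain were described from lists, which also hold small differences and share the dependence on scaling. Among respiratory chain proteins that the name rule leaves out, 4 of 8 were higher and 3 lower, beside 27.8% and 32.6% of all genes. Ndufa4l2, a paralog of Ndufa4 known to rise in low oxygen and to lower complex I activity, read 5.32, 5.34 and 5.35 in hetero and 4.24, 4.22 and 4.22 in ko, a difference of -1.11 ± 0.02 (2.15-fold lower, limma adjusted p = 1.23e-06). It was called lower under all 8 scalings, the opposite of Ndufa4. Cycs, the cytochrome c that links complexes III and IV, read 4.84, 4.86 and 4.83, then 5.32, 5.33 and 5.27, a difference of 0.46 ± 0.03 (limma adjusted p = 5.59e-05). Ndufab1, the mitochondrial acyl carrier protein within complex I, was higher by 0.26 ± 0.03. Cycs, Ndufab1 and Cyc1 were called higher under all 8 scalings.

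Of 17 ATP synthase subunits, 2 were higher and 2 lower, beside 27.8% and 32.6% of all genes, with a median of 0.02. The catalytic beta subunit gene Atp5b rose by 0.22, the gamma subunit gene Atp5c1 by 0.11, and the epsilon subunit gene Atp5e fell by 0.30. Of 44 assembly factors together, 13 (29.5%) were called lower, near the 32.6% of all genes, and 4 (9.09%) higher, against 27.8% of all genes. By complex the counts were 2 higher and 5 lower of 15 for complex I, 0 and 1 of 4 for complex II, 0 and 2 of 5 for complex III and 2 and 5 of 20 for complex IV. Named falls were those of the complex I factors Ndufaf1 (-0.28) and Ndufaf8 (-0.28), the complex III factors Uqcc3 (-0.29) and Bcs1l (-0.18), the complex II factor Sdhaf4 (-0.16) and the complex IV factors Surf1 (-0.29) and Cox14 (-0.16). The complex I factor Acad9 (0.23) and the complex IV factor Coa7 (0.41) were higher. All of the falls named in this paragraph turned to called rises with spike-in scaling, where 0 genes of the 4 assembly lists were called lower, while Acad9, Coa7 and Atp5b were called higher under all 8 scalings.

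Of 17 enzymes of the tricarboxylic acid cycle and the pyruvate dehydrogenase complex, 9 were higher and 2 lower, with a median of 0.14. Of all genes, 27.8% were called higher and 32.6% lower. Idh3a, a subunit of the NAD-dependent isocitrate dehydrogenase, read 3.07, 3.12 and 3.18 in hetero and 3.75, 3.66 and 3.73 in ko, a difference of 0.59 ± 0.04 (limma adjusted p = 0.000155). Suclg2, the GTP-forming subunit of succinyl-CoA synthetase, read 1.4, 1.37 and 1.43, then 0.79, 0.86 and 0.72, a difference of -0.61 ± 0.04 (limma adjusted p = 0.00012). Pdhb, of pyruvate dehydrogenase, was higher by 0.23 ± 0.02. These 3 kept their call under all 8 scalings. Of 15 regulators of mitochondrial biogenesis, 4 were higher and 1 lower, beside the same shares of all genes (27.8% and 32.6%), with a median of 0.05. Over the 8 scalings the number higher ran from 3 to 13 and the number lower from 0 to 1. Those higher included the coactivator gene Ppargc1a (0.73 ± 0.07, but 0.12 ± 0.06 with limma adjusted p = 0.127 under normexp, and called higher under the other 7 scalings), its nuclear receptor partner Esrra (0.20 ± 0.02) and Mterf4 (0.31 ± 0.03), a factor of mitochondrial ribosome assembly.

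**Figure D5:**
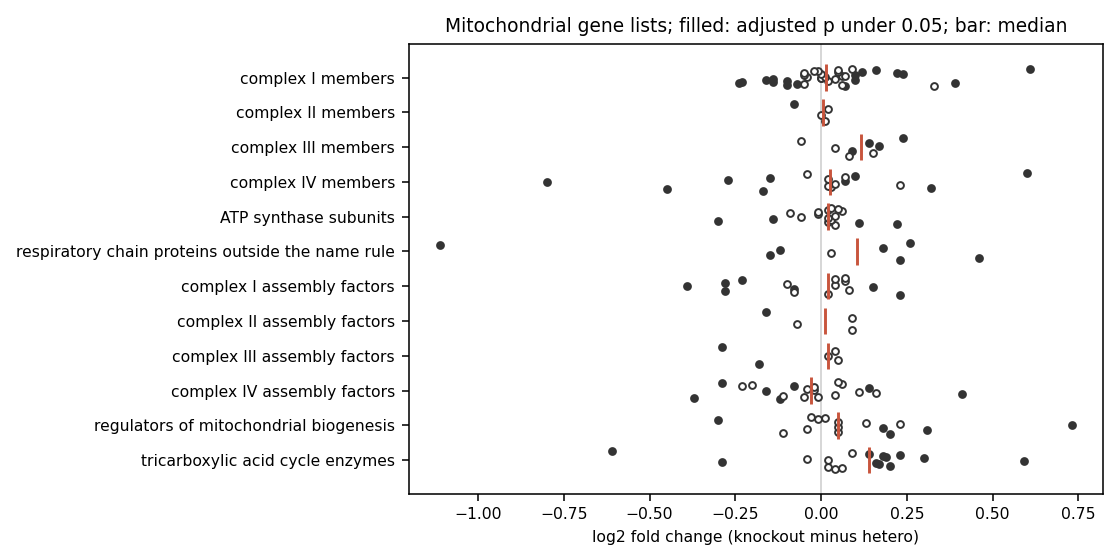
Log2 difference (ko minus hetero) of each tested gene of complexes I to IV and of 8 lists around the respiratory chain, with 1 point per gene, filled where the adjusted p was under 0.05, and a bar at each median. The medians lie between -0.03 and 0.14, and Ndufa4l2 at -1.11 and Ppargc1a at 0.73, a dim gene that is at 0.12 under normexp, lie farthest to either side.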

How the data were processed

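Per the submitters' processing notes, the authors read the scans with Agilent Feature Extraction 10.7.3.1. Of its outputs the deposited, background-subtracted intensity (processed signal) was analysed, per the file headers. The deposited value table holds the same intensities divided by 1 constant per array, as a comparison of the deposited files showed. Control spots (3671 of 62976) and outlier-flagged spots were left out. Gene names came from matching each probe's RefSeq accession to a GRCm38.p6 gene table, whose coordinates were used only for its own promoters, since the array header names mm9.

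The log2 signal minus each array's 75th percentile was compared between genotypes in R 4.3.3 with limma 3.58.1 (lmFit, eBayes), without covariates. Genes well above background on at least 3 of 6 arrays were kept, each by its brightest probe, and p-values were adjusted over all 15838 genes by the Benjamini-Hochberg method at 0.05. Fold changes are ko over hetero. Alternatives were other scalings, normexp on the median signal with offset 50 (a mean signal was not used here), no filter or a filter on all 6 arrays, probe means, the value table, a replicate block, each array left out, and, chosen after seeing the data, slide row as a block. The number of arrays limits the precision. On 321 probes with several spots, the SD between arrays of a genotype (0.042) was no larger than that between spots of an array (0.066). All arrays shared 1 slide and scan, and each slide column held 1 genotype, so column and genotype cannot be told apart. In simulated arrays of the ko against hetero comparison (15838 genes, 50 changed per size), the fit recovered 28% of changes of 0.25 and 70% of 0.5. It recovered 82% of changes of 1 and 90% of 2, and 7 of 142 calls were unchanged genes. Few genes changed in the simulation, while 60.4% of all genes were called in the data. The simulated limit on p was therefore stricter, so these shares do not describe what the fit to the data detects. The members also had a smaller median standard error (0.028) than all genes (0.041).

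The members and the 21 gene lists were chosen with earlier results of these data known. Named are all tested members of complexes II and III, the complex I core, the general and tissue isoforms of complex IV, the 6 largest rises and 6 largest falls among the other members called with genotypes apart, and up to 3 genes of smallest p in each other list. The values of 1 gene that this rule takes are not reported here. Ndufa1 and, in lists, Ckm, Myh2, Ucp1, Abcc9, Rgs5 and Kcnj8 were added after their values were seen. Cox5b, Cox7c and Cox6c were added for their place in complex IV.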

Additional observations from a re-analysis of the deposited data

How the results depend on the processing

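Counts below are members called higher and lower in ko, and values are log2 differences, ko minus hetero. The main counts were 17 and 14, and the main medians of complexes I, II, III and IV were 0.02, 0, 0.12 and 0.03. With no scaling the counts were 52 and 2 and the medians 0.23, 0.22, 0.33 and 0.24. With spike-in scaling they were 62 and 1, with 0.43, 0.42, 0.53 and 0.44. With quantile normalization they were 44 and 4, with 0.12, 0.07, 0.22 and 0.18, and with cyclic loess 43 and 4, with 0.11, 0.10, 0.21 and 0.13. Median scaling gave 8 and 5, with medians of 0.04, 0.02 and 0.14 for complexes I to III. The 75th percentile over detected probes gave medians of 0.03 for complex I and 0.13 for complex III, and normexp gave 0.06, 0.02, 0.15 and 0.08. With no filter 11 members were higher. With the mean of a gene's probes the median of complex I was 0.04 and Ndufv3 was 0.11, against 0.61. A filter on all 6 arrays and the deposited value table both gave 17 and 14.

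Directions turned for these named members. With spike-in scaling Cox4i1 was 0.24, Cox7a1 0.15, Cox8a 0.38, Cox7a2l 0.27, Ndufs3 0.37, Ndufs7 0.39, Ndufa3 0.18, Ndufa5 0.18, Ndufa6 0.28, Ndufb10 0.26, Ndufb11 0.28, Sdhb 0.42, Sdhd 0.34 and Uqcrh 0.36. With no scaling Cox4i1 was 0.04, Cox8a 0.18, Cox7a2l 0.07, Ndufs3 0.17, Ndufs7 0.19, Ndufa6 0.07, Ndufb10 0.06, Ndufb11 0.08, Sdhb 0.21, Sdhd 0.14 and Uqcrh 0.16. With quantile normalization Cox4i1 was 0.03, Cox8a 0.20, Cox7a2l 0.03, Ndufs3 0.08, Ndufs7 0.11, Ndufb11 0.04, Sdhb 0.15, Sdhd 0.01 and Uqcrh 0.12. With cyclic loess Cox8a was 0.12, Ndufs3 0.06, Ndufs7 0.08, Sdhb 0.12, Sdhd 0.02 and Uqcrh 0.08. With normexp Ndufs7 was 0.01. Sdhb was at 0 with the main scaling, so its turn starts from no difference. Under no scaling and spike-in scaling the shift is by construction a constant per array, and for the intensity-dependent settings the cause was not tested.

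Leaving out each array in turn gave 8387 to 8959 genes called over all, 11 to 13 members higher and 10 to 13 lower, with medians of 0.01 to 0.02 for complex I, -0.01 to 0.01 for II, 0.09 to 0.12 for III and 0.02 to 0.04 for IV. The labels do not say whether the replicate numbers pair the samples. The deviations of arrays with the same number correlated at -0.12, -0.02 and -0.01. These values show no shared deviation but cannot settle whether samples were paired. With a replicate block 8511 genes were called over all, 12 members higher and 11 lower, and the calls of Sdhd (adjusted p = 0.0942), Uqcrb (0.108) and Ndufa9 (0.0828) in limma were lost. With slide row as a block the counts were 17 and 13.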
